A study of Mus musculus with 6 samples.

Results

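Of the 170 tRNA-derived fragments (tRFs) deposited as decreased in *db/db* mouse islets, 7 came from nuclear tRNA-Glu-TTC, whose anticodon TTC reads glutamate codons. They are all the rows whose host tRNA carries the name GluTTC and is not mitochondrial. The fragments were sequenced in pancreatic islets of 3 *db/db* mice, labelled pre-diabetic, with both copies of the leptin receptor gene mutated (genotype BKS(D)-Leprdb/JOrlRj), and of 3 heterozygous *db/+* mice (BKS(D)-Leprdb/+/JorlRj), which also carry 1 mutated copy. The mice were males on a chow diet, all labelled as 16 weeks old, and each gave 1 small-RNA library. The labels and the study's methods name different colonies for mice of this age. The list was made by the authors from the same 6 libraries for a decrease in *db/db* islets, so the direction of every change given here was fixed by that choice. The folds and p-values describe listed fragments and are not independent evidence of a decrease. The list holds no messenger RNA, so the islet label was not checked against marker genes. In whole islets, fewer cells of a type and less of a fragment per cell cannot be told apart.

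A tRNA folds into a cloverleaf of 4 arms. The acceptor arm joins the 5′ and 3′ ends, and the D, anticodon and T arms each carry a loop. After transcription, an enzyme adds the bases CCA to the 3′ end, where the amino acid is attached, so a fragment that ends in CCA comes from a tRNA that had been through this step. A 5′ fragment keeps the 5′ end of the tRNA, a 3′ fragment keeps its 3′ end, and an internal fragment has lost both. In mammals, 5′ fragments of tRNA-Glu have been found in many tissues and in sperm. The T loop of many tRNAs carries a methylated adenosine that stops reverse transcription, and the RNA was demethylated before the libraries were made.

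The 7 fragments came from 6 host genes of 2 sequence families. The tRNA-Glu-TTC-1 family has 4 host genes, on chromosomes 7, 9, 13 and 14, and the tRNA-Glu-TTC-2 family has 2, on chromosomes 1 and 14. RefSeq (GRCm38.p6) lists 8 nuclear genes for this anticodon, 6 of them on the chromosomes of the host genes and 2 on chromosome 3, which holds no host gene of a listed fragment. The sequences are shown 5′ to 3′ because single bases and ends tell the fragments apart. In the 3′ fragments, capitals mark the CCA end and the 1 base at which the families differ. In the others they mark the anticodon.
27-nt 3′ fragment of tRNA-Glu-TTC-1: cgggttcgactcccggtGtgggaaCCA
27-nt 3′ fragment of tRNA-Glu-TTC-2: cgggttcgactcccggtAtgggaaCCA
44-nt 5′ fragment of tRNA-Glu-TTC-2: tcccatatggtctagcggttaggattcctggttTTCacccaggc
33-nt internal fragment of both families: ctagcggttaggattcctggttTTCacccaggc

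The 27-nt 3′ fragments run from position 49 to 75 of the tRNA, in the T arm, the 3′ strand of the acceptor stem and the CCA. They differ by G18A, counted from 1 at the 5′ end of the fragment with the tRNA-Glu-TTC-1 base first. This base is position 66 of the tRNA and faces position 6 in the acceptor stem. The third 3′ fragment, of 26 nt, is the tRNA-Glu-TTC-2 fragment without its last A. The 3 fragments from the 5′ end have 16, 26 and 44 nt, and the shorter ones are the first bases of the 44-nt fragment shown above. The internal fragment covers positions 12 to 44. It shares its 3′ end with the 44-nt 5′ fragment and is identical in all 6 host genes. The 16-nt 5′ fragment is assigned to the 2 genes of tRNA-Glu-TTC-2 only. As the families are identical from position 12 to 44, the difference lies in the first 11 positions. No 5′ fragment of the tRNA-Glu-TTC-1 family was in the list.

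**Figure D1:**
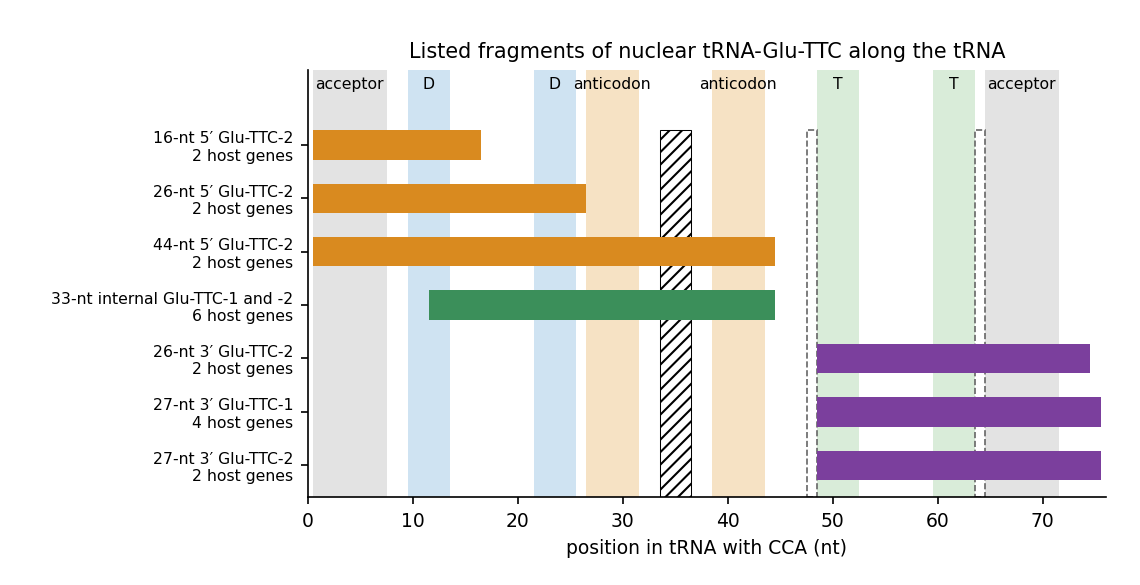
Position of the 7 listed fragments along tRNA-Glu-TTC, in nt from the 5′ end with the CCA included. Bars are the fragments (orange for 5′, green for internal, violet for 3′), shaded bands are the paired strands of the arms named on top, dashed outlines are positions 48 and 64, the place of the outermost T-stem pair, which could not be read from the fragments, and the hatched band is the anticodon. No fragment ends within the anticodon loop, and positions 45 to 48 lie in none of them.

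The ends of the listed fragments fell at few places. The 3′ fragments all began at position 49, inside the T stem, and their first 4 bases can pair with positions 60 to 63. A T stem usually has 1 more pair at its base, here between positions 48 and 64, and position 48 is in none of the listed fragments. The 44-nt and the internal fragment both ended at position 44, next to the anticodon stem, whose 5 base pairs they keep whole. The 16-nt fragment ended in the D loop (positions 14 to 21), and the 26-nt 5′ fragment ended at position 26, between the D and the anticodon stems. None of the 7 had an end in the anticodon loop (positions 32 to 38). Fragments of this tRNA outside the list were not examined, so these need not be all the ends it gave in islets.

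Levels are given as normalized reads, the reads of a fragment in a library divided by a size factor for that library. The factors were recovered from the deposited reads and mean levels. They ran from 0.509 to 1.20 in *db/db* and from 0.668 to 1.68 in *db/+* libraries. The 7 fragments together had 561, 1309 and 1357 reads in *db/db* replicates 1, 2 and 3, against 5448, 4820 and 1266 in *db/+* replicates 1, 2 and 3. Before scaling, *db/+* replicate 3 thus lay below *db/db* replicates 2 and 3. After scaling, the sum was 1102, 1302 and 1128 normalized reads in *db/db*, against 3245, 3025 and 1895 in *db/+* replicates 1, 2 and 3. The groups did not overlap on this scale, and *db/+* replicate 3 was the lowest of its group. The separation of the groups therefore rests on the size factors as well as on the reads. Every direction given below is on the authors' scale. Scaled by TMM within the list, which removes what the listed tRFs share, the log2 fold changes of the 27-nt pair and of the 3 fragments from the 5′ end turned positive (0.20 to 1.20), and 0 of the 7 passed. Of the 170 listed tRFs, 111 were below 0 on that scale and 0 passed.

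The pair of 27-nt 3′ fragments carried most of the reads and, on the authors' scale, had the smallest decreases of the whole list. The fragment of tRNA-Glu-TTC-1 had 338, 856 and 940 reads in *db/db* replicates 1, 2 and 3, against 3395, 2941 and 759 in *db/+* replicates 1, 2 and 3. Its normalized level was 664, 852 and 781 in *db/db*, against 2022, 1846 and 1136 in *db/+* libraries. All *db/db* libraries were low, and the lowest *db/+* library, replicate 3, was the nearest to them. The means were 766 ± 94.8 normalized reads in *db/db* and 1668 ± 469 in *db/+* islets (SD, n = 3 each), which placed it at rank 3 of all listed tRFs by level and at rank 1 of those of nuclear origin. Its log2 fold change was -1.12 (standard error 0.64) and did not pass edgeR's quasi-likelihood test (adjusted p = 0.102).

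The 27-nt fragment of tRNA-Glu-TTC-2 had 189, 377 and 332 reads in *db/db* replicates 1, 2 and 3, against 1640, 1462 and 369 in *db/+* replicates 1, 2 and 3. It reached 371, 375 and 276 normalized reads in *db/db*, against 977, 918 and 552 in *db/+* libraries. As for its partner, the groups did not overlap and *db/+* replicate 3 was the lowest of its group. The means were 341 ± 56.2 normalized reads in *db/db* and 816 ± 229.9 in *db/+* islets (SD, n = 3 each), and the log2 fold change was -1.26 (standard error 0.67, adjusted p = 0.0824 from edgeR), not past the threshold. Of the 6 fits that each left out 1 library, the one without *db/+* replicate 3 was the one in which these fragments passed, with log2 fold changes of -1.34 and -1.47 (adjusted p = 0.00475 and 0.00915 from edgeR). In that fit 7 of the 7 fragments and 92.9% of the list passed. DESeq2 called both (adjusted p = 0.0120 and 0.00670), along with the other 5 fragments and 100.0% of the list, which the authors had chosen with the same tool.

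**Figure D2:**
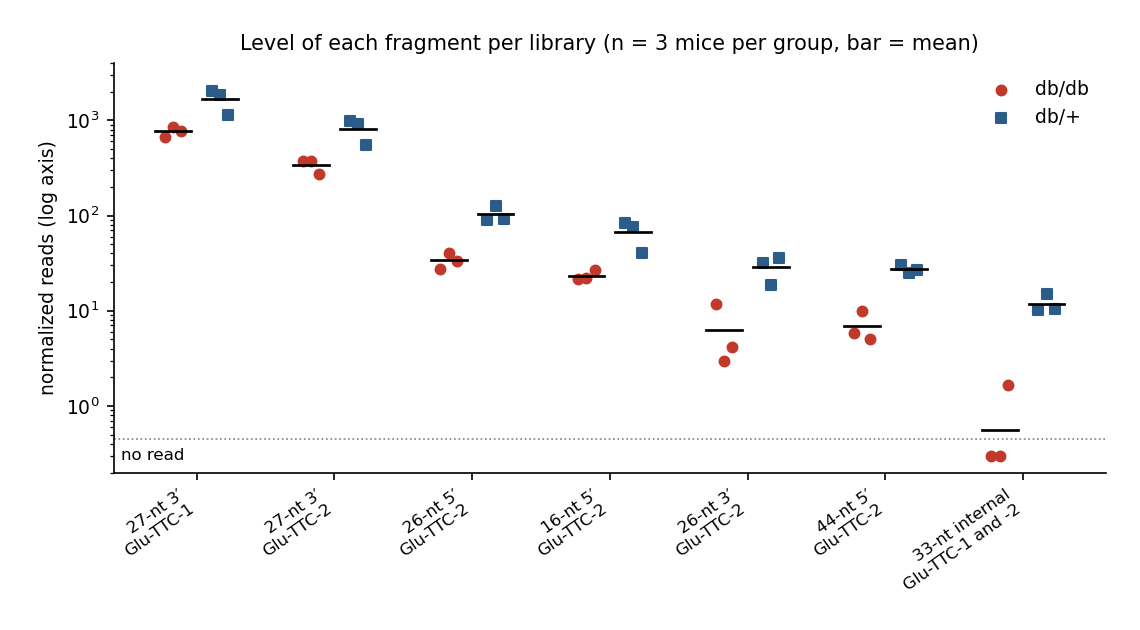
Normalized reads of each fragment (log axis) in the 3 *db/db* libraries (red circles) and the 3 *db/+* libraries (blue squares), ordered by mean level, with the group mean as a bar. For each of the 7 fragments the *db/db* libraries lie below the *db/+* libraries on the authors' scale, as they do for 94.7% of the list. Under TMM within the list the fitted log2 fold changes of 5 of the 7 were positive, and 0 of the 7 passed. Of the 170 listed tRFs, 111 were below 0 on that scale and 0 passed. Points under the dotted line had no read.

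The 2 abundant fragments stood to each other about as their numbers of host genes. The ratio of the tRNA-Glu-TTC-1 to the tRNA-Glu-TTC-2 fragment was 1.79, 2.27 and 2.83 in *db/db* replicates 1, 2 and 3, against 2.07, 2.01 and 2.06 in *db/+* replicates 1, 2 and 3, where the families have 4 and 2 host genes. Divided by host genes, the means were 191 and 170 normalized reads per gene in *db/db*, and 417 and 408 in *db/+* islets, for tRNA-Glu-TTC-1 and tRNA-Glu-TTC-2 in that order. The share of tRNA-Glu-TTC-2 in the reads of the pair was 35.9% (exact binomial 95% interval 31.8 to 40.1), 30.6% (28.0 to 33.2) and 26.1% (23.7 to 28.6) in *db/db* replicates 1, 2 and 3. In *db/+* replicates 1, 2 and 3 it was 32.6% (31.3 to 33.9), 33.2% (31.8 to 34.6) and 32.7% (30.0 to 35.5). The means were 30.8% ± 4.89 in *db/db* and 32.8% ± 0.332 in *db/+* islets (SD, n = 3 each), and the groups overlapped. The *db/+* libraries were nearly equal, whereas the intervals of *db/db* replicates 1 and 3 lay apart. Reads of this pair are told apart by 1 base, so a misread there would move a read from one to the other, and these intervals cover counting error only. Why the genes gave the fragments in this ratio was not tested.

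The 26-nt 3′ fragment, without the last base of the CCA, was rare beside the full-length form. It had 6, 3 and 5 reads in *db/db* replicates 1, 2 and 3, against 53, 30 and 24 in *db/+* replicates 1, 2 and 3. The normalized levels were 11.8, 2.99 and 4.16 in *db/db*, against 31.6, 18.8 and 35.9 in *db/+* libraries. The groups did not overlap, and *db/db* replicate 1 was the highest of its group. The log2 fold change was -2.31 (standard error 0.61, adjusted p = 0.00503 from edgeR). With 1 library left out it ran from -2.95 without *db/db* replicate 1 to -1.95 without *db/db* replicate 2. Of the summed reads of the 26-nt and 27-nt forms of tRNA-Glu-TTC-2, the shorter form made up 3.08%, 0.789% and 1.48% in *db/db* replicates 1, 2 and 3, against 3.13%, 2.01% and 6.11% in *db/+* replicates 1, 2 and 3. These shares overlapped between the groups, with means of 1.78% ± 1.17 in *db/db* and 3.75% ± 2.12 in *db/+* islets (SD, n = 3 each). The list had no such shorter form of tRNA-Glu-TTC-1.

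The 5′ fragments were lower in level than the 27-nt pair, and all 3 passed edgeR's test, as did 97.6% of the whole list, with the sign turned under TMM within the list. The 26-nt fragment was the most abundant of them in each of the 6 libraries. It had 14, 41 and 40 reads in *db/db* replicates 1, 2 and 3, against 151, 202 and 62 in *db/+* replicates 1, 2 and 3. Its level was 27.5, 40.8 and 33.3 normalized reads in *db/db*, against 89.9, 127 and 92.8 in *db/+* libraries. Groups were far apart here, with all *db/+* libraries more than 2-fold above the highest *db/db* library. The log2 fold change was -1.60 (standard error 0.57, adjusted p = 0.0186 from edgeR). It did not pass without *db/db* replicate 3 (-1.58, adjusted p = 0.0691) or *db/+* replicate 2 (-1.42, adjusted p = 0.0955).

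The 16-nt 5′ fragment, the shortest tRF of the list, had 11, 22 and 32 reads in *db/db* replicates 1, 2 and 3, against 141, 121 and 27 in *db/+* replicates 1, 2 and 3. The normalized levels were 21.6, 21.9 and 26.6 in *db/db*, against 84.0, 75.9 and 40.4 in *db/+* libraries. The *db/db* libraries were close to each other, and *db/+* replicate 3 was again the lowest of its group. The log2 fold change was -1.51 (standard error 0.54, adjusted p = 0.0186 from edgeR). The call was lost without *db/db* replicate 2 (-1.46, adjusted p = 0.0625), *db/+* replicate 1 (-1.32, adjusted p = 0.0767) or *db/+* replicate 2 (-1.41, adjusted p = 0.0720).

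The 44-nt 5′ fragment, which keeps the anticodon arm, had 3, 10 and 6 reads in *db/db* replicates 1, 2 and 3, against 51, 40 and 18 in *db/+* replicates 1, 2 and 3. Its level was 5.89, 9.95 and 4.99 normalized reads in *db/db*, against 30.4, 25.1 and 26.9 in *db/+* libraries. The *db/+* levels were close to each other, the *db/db* levels rested on few reads, and the groups did not overlap on the authors' scale. The log2 fold change was -1.96 (standard error 0.51, adjusted p = 0.00480 from edgeR), and it passed in each of the 6 fits with 1 library left out. The mean levels of this fragment and of the 26-nt 3′ fragment could not be ranked, with 6.94 ± 2.64 and 6.31 ± 4.78 normalized reads in *db/db*, and 27.5 ± 2.67 and 28.8 ± 8.88 in *db/+* islets (SD, n = 3 each).

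Of the 7, the internal fragment had the most host genes, the lowest level and the largest fold. It had 0, 0 and 2 reads in *db/db* replicates 1, 2 and 3, against 17, 24 and 7 in *db/+* replicates 1, 2 and 3. After scaling, *db/db* replicate 3 reached 1.66 normalized reads and the other *db/db* libraries were at 0, against 10.1, 15.1 and 10.5 in *db/+* libraries. From the summed reads and size factors, the *db/db* to *db/+* ratio was 0.0604, with an exact 95% interval of 0.00711 to 0.231 that covers counting error only and not the spread between mice. The fitted log2 fold change was -3.87 (standard error 0.94, adjusted p = 0.00445 from edgeR). Its size is poorly set with 2 reads in one group. Without *db/db* replicate 3, no *db/db* read was left. Taking a floor of 3 reads for *db/db* replicates 1 and 2 together, the fragment was at least 6.15-fold lower in these libraries on the authors' scale. With *db/db* replicate 3 included, the interval above allows a decrease as small as 4.34-fold. Neither bound covers the spread between mice.

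Over the 7 fragments, 5 were called lower by edgeR, where 97.6% of all 170 listed tRFs were. A call needed a 2-fold decrease or more and an adjusted p no higher than 0.05. The highest *db/db* library was below the lowest *db/+* library for 7 of 7, where this held for 94.7% of the list. The members' median log2 fold change was -1.60, against -2.42 over all listed tRFs. Ordered by size of decrease from the smallest, the 27-nt pair took the first and second places of the list, the 16-nt, 26-nt and 44-nt 5′ fragments places 6, 14 and 37, the 26-nt 3′ fragment place 77 and the internal fragment place 158. The order among members thus ran broadly with their level, the abundant ones having the smaller folds. The 16-nt fragment came before the more abundant 26-nt 5′ fragment, and the 44-nt 5′ fragment before the 26-nt 3′ fragment, whose levels could not be ranked. A tRF with few reads needs a larger fold to be called by a count test, so such an order can come with the way the list was made, and this was not tested.

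**Figure D3:**
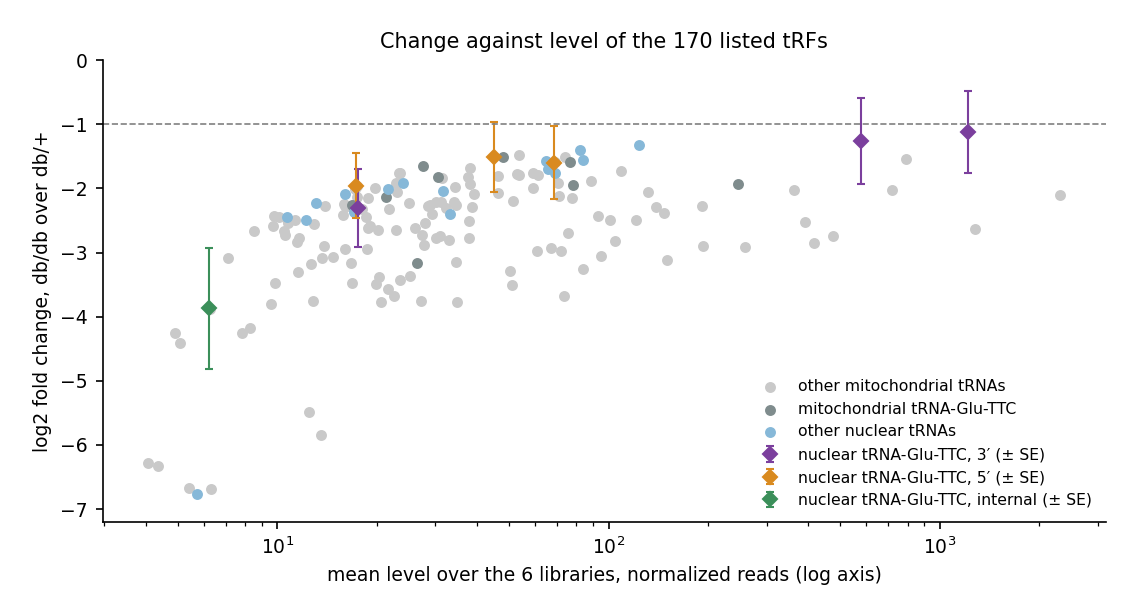
Log2 fold change (*db/db* over *db/+*, edgeR) against mean level over the 6 libraries (log axis) for the 170 listed tRFs, with the 7 nuclear tRNA-Glu-TTC fragments as diamonds with standard errors and a dashed line at a 2-fold decrease. The 27-nt 3′ pair sits at the top right, at -1.12 and -1.26, and the internal fragment at the lower left, at -3.87, all on the authors' scale. TMM within the list turned 5 of the 7 positive, while 111 of the 170 listed tRFs were below 0.

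The shares of the 3 kinds of fragment within a library need no size factor. The 3 fragments of the 3′ end made up 95.01%, 94.4% and 94.1% of the reads of the 7 fragments in *db/db* replicates 1, 2 and 3, against 93.4%, 92.0% and 91.0% in *db/+* replicates 1, 2 and 3. The groups did not overlap, but the counting intervals of *db/db* replicate 3 (92.7 to 95.3) and *db/+* replicate 1 (92.7 to 94.0) did. The means were 94.5% ± 0.459 in *db/db* and 92.1% ± 1.21 in *db/+* islets (SD, n = 3 each), a difference of 2.39 percentage points. The 5′ fragments took 5.44% ± 0.397 in *db/db* and 7.43% ± 1.08 in *db/+* islets, and the internal fragment 0.0491% ± 0.0851 in *db/db* and 0.454% ± 0.126 in *db/+* islets (SD, n = 3 each). Summed by kind, the ratio of the mean level in *db/db* to that in *db/+* islets was 0.443 for the 3′ fragments and 0.325 for the 5′ fragments. A difference between these ratios was not tested, and fragments of this tRNA outside the list are not part of the shares. The shares still depend on the choice of the list, as a fragment with few reads needed a larger fold to be in it. A higher share of the 3′ fragments in *db/db* libraries can come with that choice, and this was not tested.

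**Figure D4:**
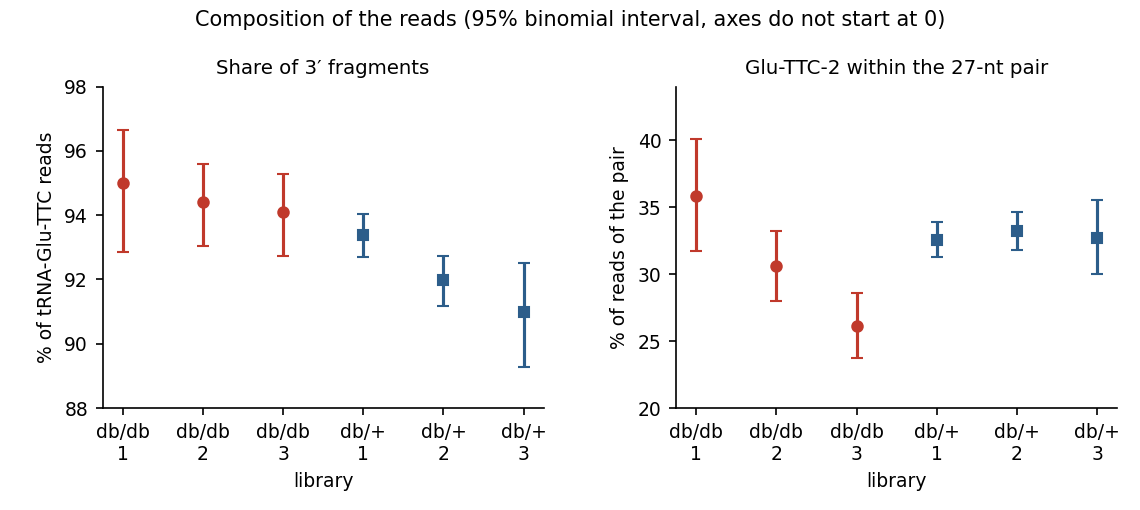
Share of the 3′ fragments in the reads of the 7 fragments (left) and share of tRNA-Glu-TTC-2 in the reads of the 27-nt pair (right), per library, in percent with exact binomial 95% intervals, *db/db* in red and *db/+* in blue. On the left the *db/db* libraries lie at 94.1% to 95.01% and the *db/+* libraries at 91.0% to 93.4%, and on the right the *db/db* libraries spread from 26.1% to 35.9% around *db/+* libraries of 32.6% to 33.2%.

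Within the 5′ fragments, the 26-nt form had the largest share of the reads by mean, then the 16-nt and the 44-nt form. The 26-nt form made up 52.5% ± 3.25 of their reads in *db/db* and 52.5% ± 7.46 in *db/+* islets, the 16-nt form 36.8% ± 5.85 in *db/db* and 33.2% ± 7.94 in *db/+* islets, and the 44-nt form 10.7% ± 3.00 in *db/db* and 14.2% ± 2.95 in *db/+* islets (SD, n = 3 each). For each of the 3 forms the groups overlapped. In *db/db* replicate 1 these shares rest on 28 reads.

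Mostly through the 27-nt pair, the fragments of tRNA-Glu-TTC dominated the listed fragments of nuclear tRNAs by summed level. They made up 82.5%, 78.1% and 76.8% of the normalized reads of the 23 listed nuclear tRFs in *db/db* replicates 1, 2 and 3, against 76.2%, 73.9% and 64.99% in *db/+* replicates 1, 2 and 3. All 3 nuclear tRFs that the authors labelled as 5-tRF were of tRNA-Glu-TTC, as were 3 of the 11 labelled as 3-tRF. The other 16 nuclear tRFs had a median log2 fold change of -2.02, and 15 of them passed edgeR's test. The most abundant of these 16, a 29-nt 3′ fragment of tRNA-Ser-CGA, had 70.5 ± 11.3 normalized reads in *db/db* and 176 ± 32.2 in *db/+* islets (SD, n = 3 each), with a log2 fold change of -1.32. It came right after the 27-nt pair both by level among nuclear tRFs and by size of decrease in the list, and like them it did not pass (adjusted p = 0.0561 from edgeR).

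The mitochondrial tRNA with the same anticodon gave 9 listed tRFs of 22 to 43 nt, all of which passed, with a median log2 fold change of -1.94. The most abundant, of 39 nt and labelled as internal, had 101 ± 50.3 normalized reads in *db/db* and 390 ± 156 in *db/+* islets (SD, n = 3 each). Whereas *db/+* replicate 3 had the lowest level of its group for the 27-nt nuclear pair, it had the highest for this mitochondrial fragment, at 569 normalized reads, where *db/+* replicates 1 and 2 had 285 and 314. Among *db/db* libraries, replicate 1 had the least of it, at 43.2 normalized reads, where replicates 2 and 3 had 125 and 135. Replicate 1 was also the lowest *db/db* library for the 27-nt tRNA-Glu-TTC-1 fragment (664), but replicate 3 was for that of tRNA-Glu-TTC-2 (276). The order of the libraries within a group was thus not the same for this fragment as for the nuclear pair.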

How the data were processed

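The authors isolated islets by collagenase digestion, treated total RNA with the rtStar pretreatment kit (deacylation, end repair, demethylation) and made libraries with the QIAseq miRNA kit. They annotated tRFs with tRNAscan-SE and GtRNAdb, mitochondrial ones with mitotRNAdb, with a minimum of 2 reads. FastQC is among the tools in the submitters' processing notes. No aligner, genome build or collapsing by molecular identifier is named (not given in the sources used here).

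A single deposited table was used, of tRFs decreased in *db/db* islets by the authors' DESeq2 test. The authors' counts are raw reads per tRF and library. The mean signal per tRF deposited by the authors is the mean of the counts divided by size factors, which were solved from it (largest misfit 1.88e-12). Their fold changes and p-values, also in the table, were not used. Library depth is not known: the reads of the listed tRFs, 1730 to 7639 in *db/db* and 25301 to 31989 in *db/+* libraries, come from tRFs chosen for a decrease. Shares have exact binomial 95% intervals, for counting error only. 

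Each of the 170 tRFs was tested with edgeR 4.0.16 (quasi-likelihood, R 4.3.3), with library sizes proportional to the size factors, no TMM, no filter and no covariate, and Benjamini-Hochberg adjustment over the 170; the standard error is the log2 fold change over the root of F. The test was checked on simulated counts. Alternatives were DESeq2 1.42.0, TMM on the list, a minimum mean level of 10, a replicate block, stricter thresholds and leaving out each library. Python 3.11.15, NumPy 2.4.6, pandas 2.3.3, SciPy 1.17.1 and matplotlib 3.10.9 did the rest. All 7 members are named; of the other nuclear and the mitochondrial tRNA-Glu-TTC tRFs, only the most abundant. Members and lists were chosen with earlier results of these data known. No islet marker list could be measured.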

Additional observations from a re-analysis of the deposited data

How the results depend on the processing

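The 7 fragments kept a lower level in *db/db* islets under all alternatives except TMM scaling on the listed tRFs, which removes by construction what the list shares and moved the median log2 fold change of the list by 2.20, from -2.42 to -0.22. On that scale 111 of the 170 tRFs and 2 of the 7 fragments were below 0, and 0 of 170 and 0 of 7 were called by edgeR (15 and 0 with an unadjusted p no higher than 0.05). The log2 fold changes there were 1.20 and 1.15 for the 27-nt 3′ fragments of tRNA-Glu-TTC-1 and tRNA-Glu-TTC-2, and 0.74, 0.70 and 0.20 for the 5′ fragments of 16, 26 and 44 nt. Below 0 were the 26-nt 3′ fragment, at -0.009 and thus nearly unchanged, and the internal fragment, at -1.89 (adjusted p = 0.988 and 0.706 from edgeR). At an adjusted p of at most 0.01, 3 of the 7 fragments and 123 of the 170 listed tRFs passed, and at a decrease of at least 4-fold 2 and 130 did. With a mean level of at least 10, 4 of 6 fragments and 149 of 153 tRFs passed, by DESeq2 7 and 170, and with 1 library left out 3 to 7 and 143 to 162 (3 and 149 without *db/+* replicate 2, 7 and 158 without *db/+* replicate 3). The share of the 3′ fragments moved by less than the spread of the libraries under each alternative. The correlations of same-numbered libraries were 0.21, -0.26 and -0.22, within the range of differently numbered ones (-0.42 to 0.41). With 3 libraries per group, these values cannot tell whether the replicate numbers mark pairs. With the number as a block, 4 of the 7 and 161 of the 170 passed. Depth limits above all the internal fragment, with 2 reads in *db/db* islets.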
